A study of Mus musculus with 12 samples.

Results

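Transcripts of myostatin, growth differentiation factor 11, the activins, follistatin, its relatives and their receptors were followed across gastrocnemius, the large calf muscle, of mice with and without a tumour. The 10 genes were taken by symbol from the deposited table of 54532 genes. They were the ligand genes Mstn, Gdf11, Inhba and Inhbb, the follistatin family genes Fst, Fstl1 and Fstl3, and the receptor genes Acvr2a, Acvr2b and Acvr1b. All mice were female and of the immunodeficient ICR SCID strain, and each of the 3 groups held 4 libraries that the labels state to be biological replicates. NTV mice were free of tumour and were given vehicle. TV mice were given vehicle and carried a subcutaneous tumour grown from HT1080, a human fibrosarcoma cell line. TL mice carried that tumour and were given selpercatinib, which inhibits the RET receptor tyrosine kinase, at 30 mg/kg by oral gavage once daily for 19 days. The study asked about selpercatinib in cancer cachexia, the wasting of muscle and fat that goes with some tumours. The tumour came from 1 human cell line in a host without normal lymphocytes.

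Myostatin is a secreted factor of the TGF-beta family made mainly by skeletal muscle, and it limits muscle mass. Myostatin, its close relative GDF11 and the activins bind the type II receptors ACVR2A and ACVR2B, which bring in a type I receptor such as ACVR1B (ALK4) and lead to phosphorylation of SMAD2 and SMAD3. Follistatin and FSTL3 bind these ligands outside the cell and block them. FSTL1 carries a follistatin-type domain but is made chiefly by mesenchymal cells and is not a classical activin trap. Loss of myostatin or blockade of the type II receptors enlarges muscle, and activin can drive wasting in mice with tumours.

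The promoters of Mstn, Gdf11 and the receptor gene Acvr1b are shown because Gdf11 and Acvr1b transcripts moved in opposite directions with the tumour while Mstn did not pass the test. Each is the 250 bases before the RefSeq gene start (GRCm38.p6), 5′ to 3′ on the gene's strand, at chr1:53061390-53061639 (+) for Mstn, chr10:128891719-128891968 (-) for Gdf11 and chr15:101173822-101174071 (+) for Acvr1b. Capitals mark matches to the motifs searched on both strands. These were GTAAACA (a FoxO site), GTCTAGAC (a SMAD palindrome), CAGAC (a short SMAD-binding word), TATAAA (the box of that name in core promoters), CAGCTG (an E-box) and the palindromic glucocorticoid response element, and no motif contains another.
Mstn: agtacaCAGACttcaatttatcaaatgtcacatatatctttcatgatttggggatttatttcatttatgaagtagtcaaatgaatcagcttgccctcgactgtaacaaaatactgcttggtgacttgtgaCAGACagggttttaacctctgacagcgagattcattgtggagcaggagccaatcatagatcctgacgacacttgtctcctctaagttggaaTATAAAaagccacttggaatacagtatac
Gdf11: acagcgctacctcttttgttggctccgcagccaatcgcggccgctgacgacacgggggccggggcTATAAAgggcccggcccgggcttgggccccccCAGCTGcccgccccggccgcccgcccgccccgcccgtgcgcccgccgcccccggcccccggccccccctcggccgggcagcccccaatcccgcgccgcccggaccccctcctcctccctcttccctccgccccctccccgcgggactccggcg
Acvr1b: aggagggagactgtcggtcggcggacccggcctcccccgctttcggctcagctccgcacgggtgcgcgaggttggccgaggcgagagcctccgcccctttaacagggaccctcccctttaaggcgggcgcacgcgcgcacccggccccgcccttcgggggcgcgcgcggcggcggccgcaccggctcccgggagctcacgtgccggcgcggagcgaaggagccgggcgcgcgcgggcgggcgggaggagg
The Mstn window held CAGAC at 244 and 120 bases before the start and TATAAA at 29 bases before it. The Gdf11 window held TATAAA at 185 and CAGCTG at 153 bases before the start, and the Acvr1b window held no match. Of the 27025 promoters of that length in the table, 42.1% held the short SMAD-binding word, 13.0% the TATA box and 12.8% the E-box. The FoxO site was in 3.09%, the SMAD palindrome in 0.174% and the glucocorticoid response element in 0.0037%. GC content was 38.4% for Mstn, 81.2% for Gdf11 and 78.8% for Acvr1b, against a median of 52% over all promoters (quartiles 44.8% and 60.8%). These are reference sequences, not sequences of the ICR SCID mice, and a match is a run of letters and not a measured binding site.

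Depth was 14939830 to 23580603 reads assigned to genes per library. Reads of the mitochondrial genome made up 11.6% to 13.5% of reads in NTV, 5.08% to 7.70% in TV and 6.04% to 13.9% in TL. The summed level of 8 skeletal muscle markers had a median of 46056 FPKM in NTV, 47601 in TV and 38904 in TL. The summed level of 6 T and B lymphocyte markers did not exceed 0.306 FPKM in any library. The brown fat marker Ucp1 was 53.4 FPKM in NTV replicate 5, 58.3 in TL replicate 1 and 3.97 in TL replicate 5, and at most 1.06 in the other libraries. On the second principal component TL replicates 1 and 5 lay far from all others, so results were also computed without them. FPKM are reads scaled by gene length and sequencing depth, so levels can be set against each other between genes. Changes are log2 differences of FPKM + 0.5 from limma, as estimate ± SE, which understates changes of weakly expressed genes. A gene was called at a Benjamini-Hochberg adjusted p under 0.05 over the 12754 genes with a mean of at least 0.5 FPKM.

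Mstn was the most abundant of the 10 transcripts, with a mean of 34.6 FPKM over the 12 libraries. Acvr1b followed at 23.9, Acvr2a at 11.7, Fstl1 at 7.29, Acvr2b at 3.08 and Gdf11 at 1.36 FPKM. Fst (0.643), Inhbb (0.552), Fstl3 (0.373) and Inhba (0.279 FPKM) were the lowest. In NTV, Mstn (24.8 to 41.6 FPKM) lay above every other member in each library. Acvr1b (9.05 to 17.8), Fstl1 (7.89 to 15.4) and Acvr2a (6.08 to 10.8 FPKM) came next and overlapped, as did Acvr2b (2.11 to 4.28) and Gdf11 (1.85 to 3.04 FPKM). In TV, Acvr1b (25.3 to 38.2 FPKM) overlapped with Mstn (29.1 to 60.7 FPKM). Fstl3 and Inhba were below the 0.5 FPKM filter, so 8 of the 10 members entered the fit. Inhba rested on 4 to 102 reads per library and Fstl3 on 7 to 36, and these 2 genes were compared by exact permutation tests over libraries.

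**Figure D1:**
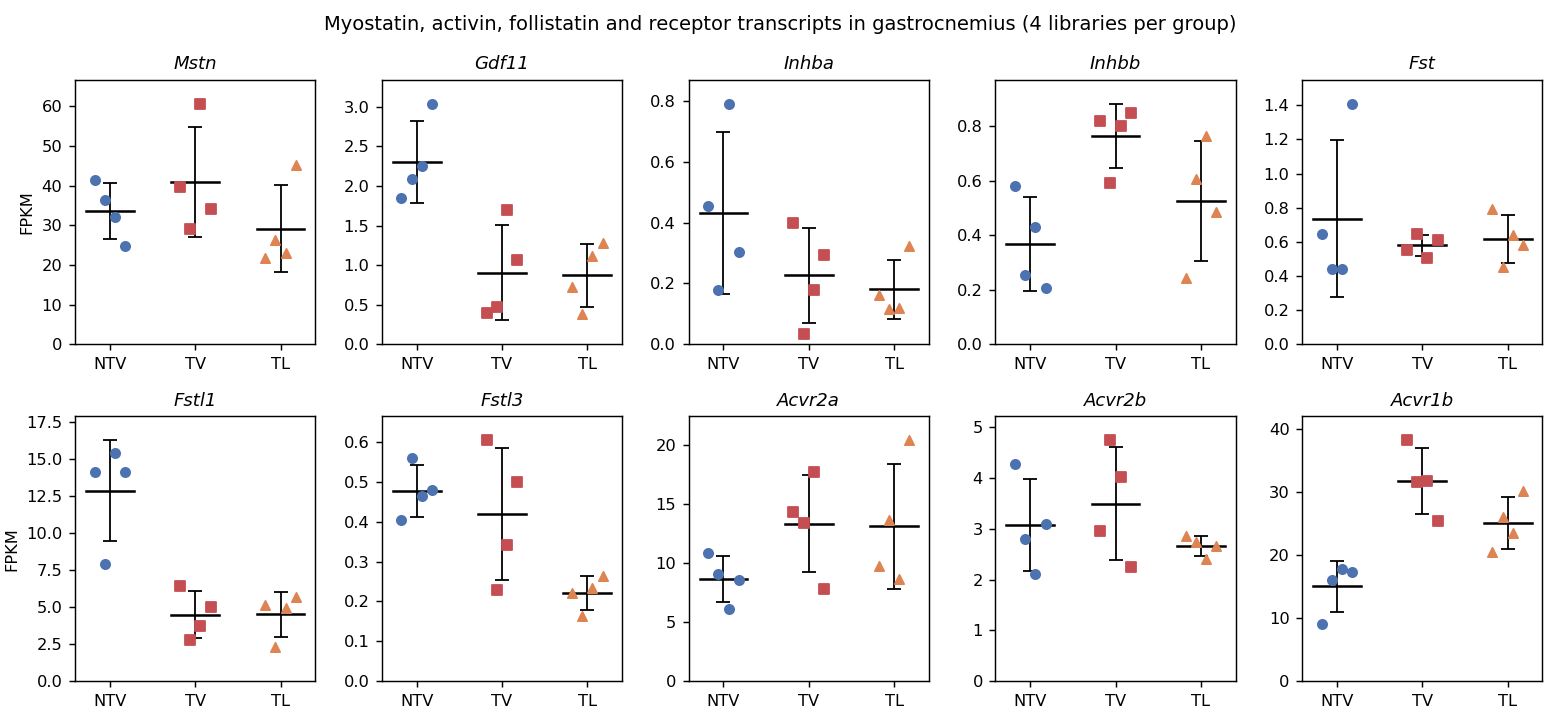
FPKM of the 10 genes in each library (points) by group, with the mean and SD of 4 libraries; each panel has its own linear axis from 0. Acvr1b was higher and Gdf11 and Fstl1 were lower in all 4 TV libraries than in any NTV library, while Mstn overlapped between all groups.

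The first comparison, TV against NTV, addressed the effect of the tumour under vehicle. With the tumour, transcripts of the type I receptor Acvr1b rose 2.11-fold, while those of the ligand Gdf11 and the secreted glycoprotein Fstl1 fell to 0.392 and 0.348 of the NTV mean. Mstn itself, follistatin and both type II receptors did not pass the test. Of the 8 members tested, 3 were called, 1 higher and 2 lower, against 25.2% of all genes tested (13.8% higher and 11.5% lower). The 4 libraries of the groups did not overlap for 4 of the 8, 2 higher and 2 lower, against 27.1% of all genes (14.4% higher and 12.7% lower). In whole muscle, fewer cells of a type and less RNA per cell cannot be told apart.

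Among the ligands, Mstn (chr1:53061640-53068079, + strand, mm10 as for all genes) was 41.6, 36.3, 32.1 and 24.8 FPKM in NTV replicates 2, 3, 5 and 6. It was 39.5, 29.1, 60.7 and 34.2 FPKM in TV replicates 3, 4, 6 and 8. TV replicate 6 was the highest of the 12 libraries, and the other TV libraries lay within the NTV range. The log2 difference was 0.25 ± 0.26, with a 95% interval of -0.33 to 0.82 (adjusted p = 0.528), so a change of up to that size in either direction was not distinguished. Gdf11 (chr10:128882295-128891718, - strand), a ligand better known from axial patterning, was 1.85, 2.08, 2.26 and 3.04 FPKM in the same NTV libraries. It was 0.394, 0.468, 1.69 and 1.06 FPKM in the TV libraries. Every TV library lay below every NTV library, with TV replicate 6 nearest to them. The log2 change was -1.08 ± 0.29 (adjusted p = 0.0210). The call ended when NTV replicate 6 (0.0604), TV replicate 3 (0.0601) or TV replicate 4 (0.0613) was left out, with no filter on low genes (0.0510) and when the 3 libraries high in Ucp1 were dropped (0.0672). Voom on recovered reads, which adds no constant of 0.5 FPKM, gave -1.66.

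Inhba and Inhbb encode the beta subunits that form activin A and activin B. Inhbb (chr1:119415465-119422248, - strand) was 0.579, 0.252, 0.431 and 0.207 FPKM in NTV and 0.820, 0.592, 0.800 and 0.847 FPKM in TV. All TV libraries lay above all NTV libraries, the nearest pair being NTV replicate 2 and TV replicate 4. The log2 difference of 0.56 ± 0.19 missed the threshold (adjusted p = 0.0504). It passed with some other settings, among them voom on recovered reads (1.12, adjusted p = 0.0392) and without TL replicates 1 and 5 (adjusted p = 0.0378). In 9 of the 12 fits that left out 1 library it still missed the threshold (adjusted p up to 0.127, without NTV replicate 6). The same held in 8 of 14 other alternatives (adjusted p up to 0.162, with a replicate block). Inhba (chr13:16011851-16031621, + strand) was 0.454, 0.177, 0.790 and 0.304 FPKM in NTV and 0.398, 0.0350, 0.178 and 0.293 FPKM in TV. The groups overlapped, on 207 reads in NTV and 111 in TV, and a 2-sided exact permutation test gave p = 0.229. Mstn made up 91.2% ± 2.93 (SD, n = 4) of the summed FPKM of the 4 ligand genes in NTV and 95.5% ± 1.09 in TV.

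Among the follistatin family, Fstl1 (chr16:37776873-37836514, + strand) was 14.1, 7.89, 15.4 and 14.1 FPKM in NTV and 6.45, 2.77, 3.73 and 4.99 FPKM in TV. NTV replicate 3 lay well below the other NTV libraries but still above all TV libraries. The log2 change was -1.44 ± 0.30 (adjusted p = 0.0060). Leaving out any single library kept this call, with adjusted p from 0.00246 to 0.0198. Fst (chr13:114452290-114458951, - strand), the ligand trap follistatin, was 0.645, 0.442, 0.442 and 1.41 FPKM in NTV and 0.554, 0.646, 0.508 and 0.612 FPKM in TV. The TV libraries all lay within the NTV range, and the log2 difference was -0.13 ± 0.21 (adjusted p = 0.686). Fstl3 (chr10:79777272-79782630, + strand), a second ligand trap, was 0.403, 0.561, 0.466 and 0.481 FPKM in NTV and 0.604, 0.229, 0.342 and 0.501 FPKM in TV. TV held both the highest and the lowest of these 8 values (exact permutation test, 2-sided, p = 0.543).

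Markers of other cells moved alongside Fstl1. The summed level of 7 fibro-adipogenic progenitor markers, which label the stromal cells of muscle, ranged from 83.6 to 114 FPKM in NTV, from 48.3 to 81.1 in TV and from 36.3 to 66.7 in TL. The sum of 8 tenocyte markers ranged from 65.0 to 123 FPKM in NTV, 17.5 to 42.5 in TV and 18.8 to 46.3 in TL. Of the stromal markers, 5 of 7 fell in TV against NTV, as did 6 of the 7 tenocyte markers tested, and none of either list was at 0 in all libraries. The sum of 6 endothelial markers also separated, at 65.3 to 89.2 FPKM in NTV, 48.1 to 59.0 in TV and 39.8 to 56.5 in TL, with 2 of 6 markers called lower in TV against NTV. Adipocyte marker sums overlapped, with medians of 69.5 FPKM in NTV, 259 in TV and 439.9 in TL. NTV replicate 3, the lowest of its group in Fstl1, was also the lowest in the stromal sum, but its tenocyte sum (80.9 FPKM) was above that of NTV replicate 2 (65.0). TV replicate 3 had the highest Fstl1 and the highest stromal sum (81.1 FPKM) of its group but the second lowest tenocyte sum (26.8 FPKM). The part of these cell types in the Fstl1 result was not tested.

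**Figure D2:**
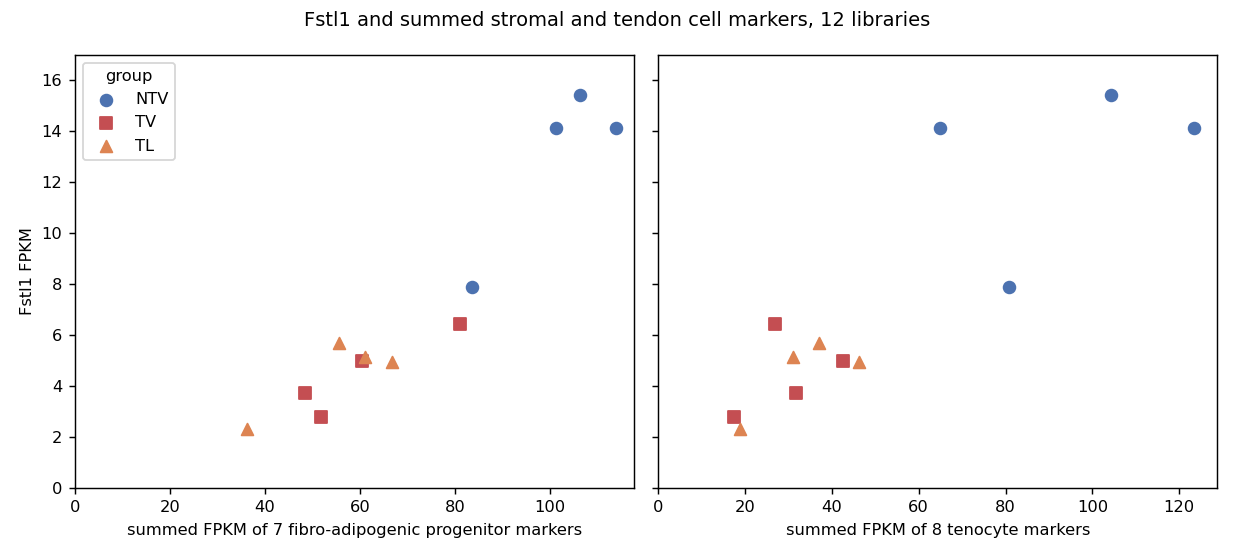
Fstl1 (vertical axis, FPKM) against the summed FPKM of fibro-adipogenic progenitor markers (left) and tenocyte markers (right) in 12 libraries, marked by group. The 4 NTV libraries, at 7.89 to 15.4 FPKM of Fstl1, had the highest marker sums in both panels.

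Among the receptors, Acvr1b (chr15:101174067-101213684, + strand) was 9.05, 16.0, 17.8 and 17.4 FPKM in NTV and 38.2, 31.5, 31.8 and 25.3 FPKM in TV. The lowest TV library lay above the highest NTV library, and NTV replicate 2 was the lowest of all. The log2 change was 1.08 ± 0.21 (adjusted p = 0.00427), and the call held without any single library (adjusted p from 0.00464 to 0.0143). Acvr2a (chr2:48814109-48903269, + strand), a type II receptor, was 10.8, 9.05, 6.08 and 8.53 FPKM in NTV and 14.3, 13.4, 17.7 and 7.79 FPKM in TV. Only TV replicate 8 lay within the NTV range, and the others were higher. The log2 difference of 0.57 ± 0.29 did not pass (adjusted p = 0.164; interval -0.06 to 1.19). Acvr2b (chr9:119402118-119434995, + strand), the other type II receptor, was 4.28, 2.79, 2.11 and 3.10 FPKM in NTV and 2.97, 4.74, 4.03 and 2.24 FPKM in TV. The groups overlapped throughout, with a log2 difference of 0.15 ± 0.21 (adjusted p = 0.625). The antisense gene Gm47320, at a mean of 9.32 FPKM, overlaps Acvr2b by 3909 bases, so without strand information reads of the pair cannot be told apart there.

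The tests of other genes of the pathway gave 15 calls of 52 tested genes in TV against NTV (28.8%), 8 higher and 7 lower, against the 25.2% of all genes. Their median log2 difference was 0.07, against 0.02 over all genes tested. The lists were chosen with earlier results of these data known. None of 4 other ligands was called, and the most abundant, Tgfb3, had a log2 difference of -0.21 ± 0.12 (adjusted p = 0.191) and Tgfb2 of -0.35 ± 0.25 (adjusted p = 0.334). The median of these 4 ligands was -0.28. Of 5 other receptors and coreceptors, Tgfbr1, the type I receptor for TGF-beta, rose from 7.24 to 13.3 FPKM (0.80 ± 0.20, adjusted p = 0.0143). It was 6.12 to 8.94 FPKM in NTV and 8.97 to 17.9 in TV, so the groups did not overlap but nearly met.

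Of 11 genes for processing and latency, 3 rose and 3 fell, with a median of -0.21. Furin, a protease that cleaves the precursors of TGF-beta family ligands, rose from 4.96 to 7.75 FPKM (0.60 ± 0.11, adjusted p = 0.00417). Its levels were 4.20 to 5.93 FPKM in NTV and 6.56 to 8.41 in TV. Wfikkn2, whose secreted product binds myostatin and GDF11, rose from 3.59 to 6.35 FPKM (0.75 ± 0.13, adjusted p = 0.00250). Its 4 TV libraries, at 6.12 to 6.57 FPKM, lay close together above NTV at 2.75 to 4.14. Tcap, the sarcomere protein telethonin that can hold myostatin inside the fibre, rose from 1995 to 3385 FPKM (0.79 ± 0.20, adjusted p = 0.0155). The Tcap call ended with no filter on low genes (adjusted p = 0.182). Bmp1, a protease that frees myostatin from its propeptide, fell (-0.78 ± 0.18, adjusted p = 0.00907), as did the matrix proteoglycan Hspg2 (-0.68 ± 0.14, adjusted p = 0.00612). Ltbp4, which anchors latent TGF-beta in the matrix, fell from 17.1 to 8.31 FPKM (-1.04 ± 0.28, adjusted p = 0.0192). Ltbp4 was not called when 1 of NTV replicate 2, NTV replicate 5 and TV replicate 4 was left out, the highest adjusted p being 0.0546. The fall in these matrix genes stands beside the marker sums of stromal and tendon cells given above, whose part was not tested.

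Of 6 SMADs and cofactors, 1 was called, with a median of 0.03. Smad4, the SMAD common to all branches, rose from 15.5 to 21.7 FPKM (0.46 ± 0.13, adjusted p = 0.0259), but the call ended on leaving out any of 6 single libraries (adjusted p up to 0.0751). The Smad4 call also ended in 6 of 15 other alternatives, among them scaling to an equal total (adjusted p = 0.0669) and quantile normalization (adjusted p = 0.0527). Of 13 genes that restrain the pathway, 3 rose and 1 fell, with a median of 0.10. Tgif1, a corepressor of SMAD transcription, rose to a mean of 6.09 FPKM (2.06 ± 0.33, adjusted p = 0.00202), and all TV libraries (3.83 to 9.70 FPKM) lay above all NTV libraries (0.783 to 1.14). The ubiquitin ligase Nedd4l rose from 1.53 to 3.25 FPKM (0.88 ± 0.14, adjusted p = 0.00226). Sik1, a salt-inducible kinase, rose from 6.75 to 29.4 FPKM (2.34 ± 0.61, adjusted p = 0.0167). NTV was split for Sik1, at 2.40 and 2.28 FPKM in replicates 2 and 6 and 11.3 and 11.0 in replicates 3 and 5, and the gene was no longer called without NTV replicate 6. The ubiquitin ligase Smurf1 fell (-0.47 ± 0.16, adjusted p = 0.0444), a call that ended in 9 of the 12 fits that left out a library (adjusted p up to 0.121).

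Of 13 genes known as targets of TGF-beta and activin, 3 fell and none rose, with a median of 0.06. All 3 encode matrix proteins or enzymes. Loxl2, a lysyl oxidase that cross-links collagen, fell (-1.16 ± 0.20, adjusted p = 0.00251), from 1.64 to 2.75 FPKM in NTV to 0.321 to 0.973 in TV. Fn1, fibronectin, fell by 1.29 ± 0.31 on the log2 scale (adjusted p = 0.0113), and Postn, periostin, by 1.42 ± 0.40 (adjusted p = 0.0226). Postn was not called when NTV replicate 5, NTV replicate 6, TV replicate 4 or TV replicate 6 was left out, the highest adjusted p being 0.0610.

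**Figure D3:**
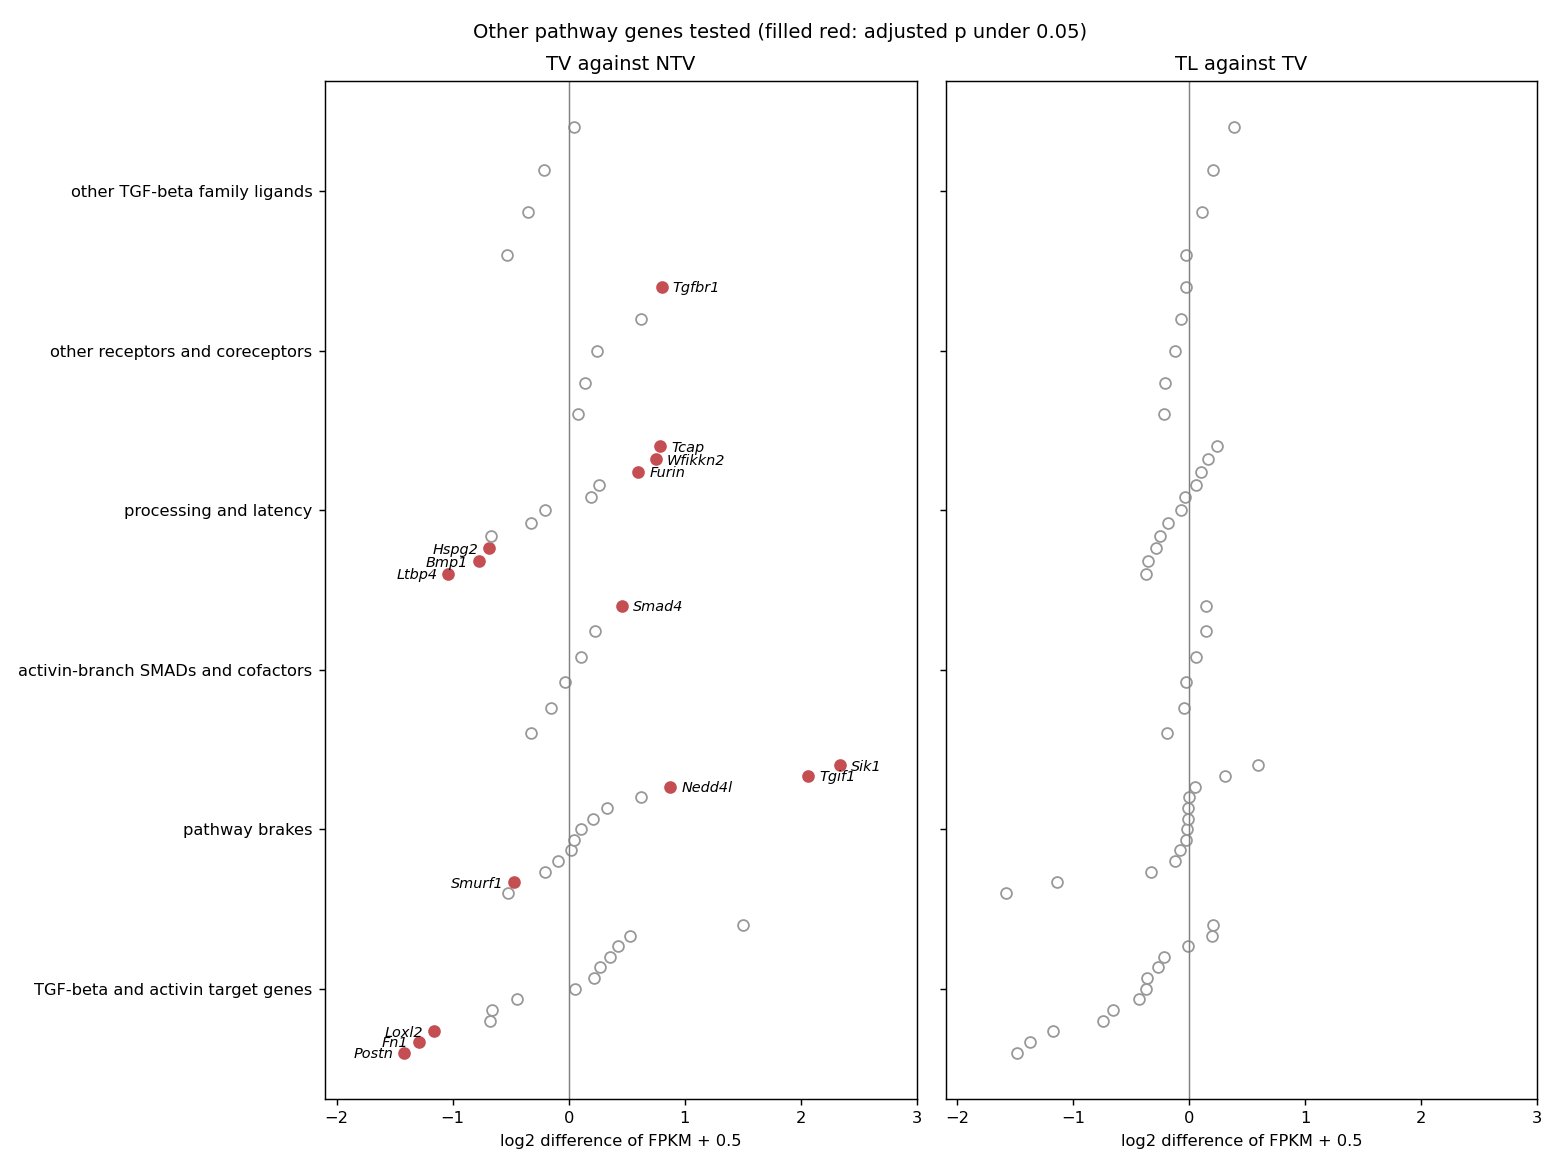
Log2 differences of FPKM + 0.5 for the 52 other pathway genes tested, by list (rows), in TV against NTV (left) and TL against TV (right). Filled red points passed an adjusted p of 0.05. There were 15 such genes in TV against NTV and 0 in TL against TV.

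TL against TV addressed the effect of selpercatinib in mice with the tumour. None of the 8 members tested was called by limma, against 0.517% of all genes, and none had an unadjusted p under 0.05 or was called by voom. For none of the 10 members were the groups free of overlap, against 7.42% of all genes tested (3.36% higher and 4.05% lower). TV libraries served in both this comparison and TV against NTV, so the differences are not independent.

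Mstn was 21.9, 26.4, 23.1 and 45.3 FPKM in TL replicates 1, 4, 5 and 7. The first 3 of these lay below all TV libraries, but TL replicate 7 lay above 3 of the 4. The log2 difference was -0.49 ± 0.26 (adjusted p = 0.389; 95% interval -1.06 to 0.09). Gdf11 was 0.720, 0.381, 1.11 and 1.27 FPKM in TL, which overlapped with TV (0.01 ± 0.29, adjusted p = 0.992). Its interval ran from -0.63 to 0.66. Inhbb was 0.242, 0.607, 0.763 and 0.486 FPKM in TL, with replicates 1 and 7 below all TV libraries and the other two within the TV range (-0.33 ± 0.19, adjusted p = 0.430). Inhba was 0.161, 0.117, 0.120 and 0.324 FPKM in TL, on 92 reads in all (exact permutation test, p = 0.657).

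Fstl1 was 5.12, 2.30, 4.95 and 5.67 FPKM in TL, and these libraries lay within or just beside the TV range. Its group means were 4.51 FPKM in TL and 4.48 in TV. The log2 difference was 0.00 ± 0.30 (adjusted p = 0.999), with an interval of -0.65 to 0.65. Fst was 0.790, 0.450, 0.638 and 0.582 FPKM in TL (0.04 ± 0.21, adjusted p = 0.950), which spanned the TV values. Fstl3 was 0.221, 0.164, 0.234 and 0.264 FPKM in TL. TV replicates 3, 6 and 8 lay above all of these and TV replicate 4, at 0.229 FPKM, lay among them (exact permutation test, 2-sided, p = 0.0857).

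Acvr1b was 20.4, 26.1, 23.5 and 30.1 FPKM in TL, with replicates 1 and 5 below all TV libraries and the other two within the TV range. The log2 difference was -0.33 ± 0.21 (adjusted p = 0.454; interval -0.78 to 0.11). Acvr2a was 9.75, 13.6, 8.63 and 20.4 FPKM in TL, which spanned almost the same range as TV (-0.04 ± 0.29, adjusted p = 0.961). Acvr2b was 2.87, 2.75, 2.40 and 2.66 FPKM in TL. These values lay closer together (SD 0.199) than those of TV (SD 1.11), and the means did not differ by the test (-0.29 ± 0.21, adjusted p = 0.528). The ratio of Acvr2a to Acvr2b FPKM was 2.85 ± 0.296 in NTV, 3.88 ± 0.902 in TV and 4.91 ± 1.97 in TL (SD, n = 4), given as a description.

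None of the 52 other pathway genes was called by limma or by voom in TL against TV, and 9 had an unadjusted p under 0.05 (17.3%, against 16.1% of all genes tested). Their median log2 difference was -0.06, against -0.003 over all genes. By list the medians were 0.16 for ligands, -0.12 for receptors, -0.07 for processing and latency, 0.02 for SMADs, -0.02 for brakes and -0.38 for target genes. Tgif1, called in the tumour comparison, was 1.59, 4.50, 1.18 and 3.22 FPKM in TL, with replicates 1 and 5 near the NTV level and replicate 4 within the TV range (-1.14 ± 0.33, adjusted p = 0.140). Without TL replicate 4 Tgif1 was called lower (-1.41, adjusted p = 0.0424). Sik1 was 5.81, 23.1, 3.49 and 14.5 FPKM in TL (-1.58 ± 0.61, adjusted p = 0.234). All of these lay below the TV libraries (24.2 to 43.0 FPKM), with replicates 1 and 5 again the lowest. TL replicates 1 and 5 are the libraries that stood apart on the second principal component, and both held Ucp1 above 2 FPKM. NTV replicate 5, with Ucp1 at 53.4 FPKM, did not stand apart there (-0.30). On the first component (34.5% of variance) TL replicates 1 and 5 lay at -0.56 and -10.4. These values, like TL replicate 7 (9.67), fell between NTV (-36.7 to -25.6) and TV (14.2 to 39.1). TL replicate 4 (27.6) fell within the TV range. What sets these libraries apart was not tested. The most abundant genes of each list gave Tgfb3 -0.03, Tgfb2 0.21, Eng -0.12, Tgfbr1 -0.07, Tcap -0.29, Dcn -0.19, Smad3 0.14, Smad4 -0.20, Fkbp1a -0.02, Ppm1a -0.01, Bhlhe40 -0.43 and Ankrd1 -1.49 as log2 differences.

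**Figure D4:**
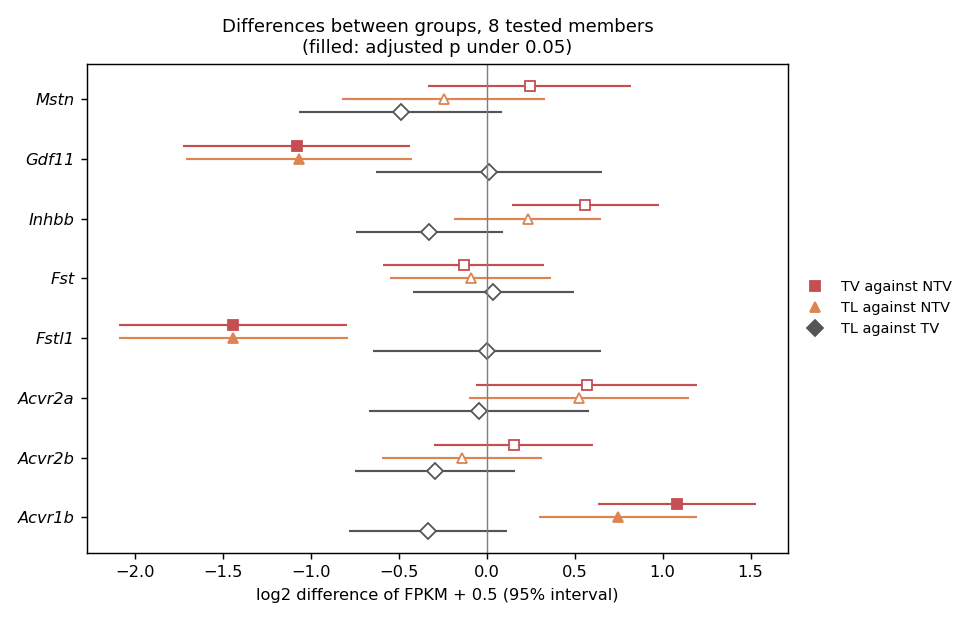
Log2 differences of FPKM + 0.5 with 95% intervals for the 8 members tested, in the 3 comparisons; filled symbols passed an adjusted p of 0.05. Acvr1b lay above 0 and Gdf11 and Fstl1 below 0 in both comparisons with NTV, and all intervals of TL against TV included 0.

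TL against NTV compared tumour-bearing mice given selpercatinib with tumour-free mice given vehicle, so tumour and drug differ together. Acvr1b rose 1.66-fold, and Gdf11 and Fstl1 fell to 0.378 and 0.350 of the NTV mean. These 3 of 8 tested members, 1 higher and 2 lower, were called against 8.81% of all genes (4.19% higher and 4.62% lower). Their libraries did not overlap between the groups, as for 20.8% of all genes (10.8% higher and 10.1% lower). NTV libraries served here and in TV against NTV, so the match between the comparisons is not independent. Acvr1b changed by 0.75 ± 0.21 (adjusted p = 0.0439), Gdf11 by -1.07 ± 0.29 (adjusted p = 0.0449) and Fstl1 by -1.44 ± 0.30 (adjusted p = 0.0149). The Acvr1b call ended without any of 9 single libraries (adjusted p up to 0.112) and the Gdf11 call without any of 7 (up to 0.122). Without the 3 libraries with Ucp1 above 2 FPKM, 2 TL libraries remained and no member was called. The differences were then -1.55 for Fstl1 (adjusted p = 0.0620), 1.01 for Acvr1b (0.0596) and -1.15 for Gdf11 (0.143), each at least as large as with all libraries. In the TL libraries the stromal and tendon marker sums were also below NTV, with 3 of 7 stromal and 5 of 7 tenocyte markers called lower.

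Fstl3 was lower in every TL library (0.164 to 0.264 FPKM) than in any NTV library (0.403 to 0.561 FPKM), on 41 reads against 84. The exact permutation test gave p = 0.0286, the smallest that 4 against 4 libraries allow, among 6 such tests of the 2 genes below the filter. In a fit without the filter its adjusted p over all genes was 0.107, so it was not called. Mstn (-0.24 ± 0.26, adjusted p = 0.589), Inhbb (0.23 ± 0.19, 0.458), Fst (-0.09 ± 0.21, 0.818), Acvr2a (0.52 ± 0.29, 0.260) and Acvr2b (-0.14 ± 0.21, 0.701) did not pass. Inhba gave an exact permutation p of 0.114.

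Of the other pathway genes, 7 of 52 were called (13.5%), 3 higher and 4 lower, against the 8.81% of all genes, with a median of -0.09. None of the 4 other ligands tested was called, and their median was -0.19. Tgfbr1 (0.73 ± 0.20, adjusted p = 0.0440), Zfyve9, an anchor that presents SMADs to the receptor (0.37 ± 0.10, 0.0432), and Nedd4l (0.55 ± 0.14, 0.0357) rose. These 3 calls ended on leaving out 8, 9 and 7 of the 12 libraries in turn. Bmp1 (-0.85 ± 0.18, adjusted p = 0.0151), Hspg2 (-0.72 ± 0.14, 0.0121), Fn1 (-1.56 ± 0.31, 0.0122) and Loxl2 (-1.53 ± 0.20, 0.00235) fell. Loxl2 was 0.276 to 0.541 FPKM in TL, below every NTV library. Zfyve9 overlaps the opposite-strand gene 3110021N24Rik over 61150 bases, which had a mean of 0.222 FPKM.

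**Figure D5:**
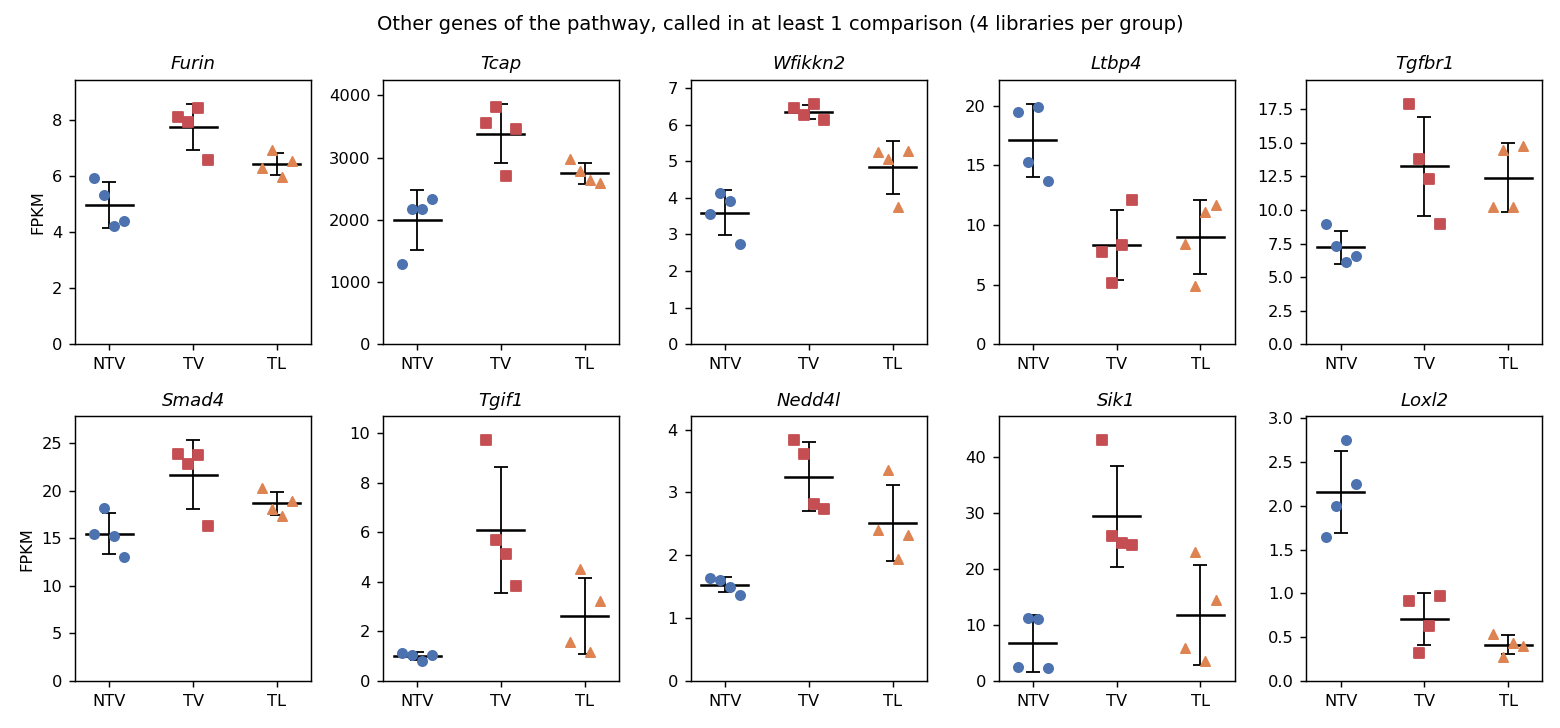
FPKM in each library (points) with the mean and SD of 4 libraries per group for 10 other pathway genes called in at least 1 comparison; each panel has its own linear axis from 0. Tgif1 in TL spread from near the NTV level (1.18 FPKM in replicate 5) into the TV range, while Sik1 in TL (3.49 to 23.1 FPKM) stayed below every TV library.

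The genes whose levels followed those of the called members most closely were found by Pearson's r of log2(FPKM + 0.5) over the 12 libraries, among 10838 genes with a mean of at least 1 FPKM. These values describe libraries that share groups and scaling, and no p is given. For Fstl1 they were Cd34 (r = 0.98), Cd248 (0.97) and Pla1a (0.96), with 0.94, 0.94 and 0.91 after group means were removed. CD34 and CD248 are surface proteins of stromal and vascular cells. Both genes were among the fibro-adipogenic progenitor markers summed above, so this likeness is not independent of that sum. For Gdf11 they were Antxr2 (0.95), Col22a1 (0.94) and Cpe (0.94), with 0.89, 0.86 and 0.87 within groups. Col22a1 encodes a collagen of the muscle-tendon junction. For Acvr1b they were Gm44220 (0.94), Sh3rf2 (0.94) and Rbmx (0.93), with 0.84, 0.75 and 0.81 within groups. For Mstn they were Fzd7 (0.89), Crlf2 (0.87) and Bicc1 (0.85), with 0.91, 0.86 and 0.90 within groups, so this likeness did not rest on the group means. Fst was matched less closely, its nearest gene being Sirpa (0.80), with a Spearman rank correlation of only 0.52. Fst was 1.41 FPKM in NTV replicate 6 and at most 0.790 FPKM in the other libraries.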

How the data were processed

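Poly(A) RNA of 12 gastrocnemius muscles, 4 each of NTV, TV and TL, was analysed from 1 table of 54532 genes. Its values are FPKM as the authors deposited them, together with gene lengths and positions. Per the submitters' processing notes, the tools were HISAT2 2.05, DESeq2 and featureCounts 1.5.0-p3 on mm10; what each was used for, and any use of strand in counting, is not given in the sources used here. FPKM times length gave whole multiples of 1 step for 100% of genes in each library (within 0.1 read), from which reads and depths were recovered. Depth was 14939830 to 23580603 reads. The 95% intervals are for differences of group means, with an SE estimated from the spread between libraries.

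log2(FPKM + 0.5) was fitted in limma 3.58.1 (R 4.3.3) with a mean for each group, a mean-variance trend and all 12 libraries together. Adjustment by Benjamini-Hochberg ran over the 12754 genes with a mean of at least 0.5 FPKM. Members below that were compared by exact permutation over libraries (scipy 1.17.1). The 10 members, 6 other pathway lists and the marker lists were chosen with earlier results of these data known; 148 of 149 symbols were found. All members are named in each comparison. From each other list all called genes were named, or the 2 most abundant where none was called. The other ligands in TL against NTV are the exception, given by their median alone. For each member in the fit the 3 genes with the most similar pattern were found. Promoter sequences came from RefSeq (GRCm38.p6), which held 9 of the 10 members.

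On simulated data for TV against NTV over 12754 genes, limma called 69 of 94 genes changed 2-fold, 100 of 106 changed 4-fold and 3 unchanged genes. The simulated noise was normal and independent between genes and libraries, and no other genes were changed. In the data 3217 genes were called and some libraries stood apart, so these rates need not carry over. Alternatives were other pseudocounts, filters, scalings, fits without trend or robust, voom on recovered reads, only the 2 groups compared, a replicate block and leaving out each library. Added after the data were seen were leaving out libraries with Ucp1 above 2 FPKM, leaving out TL replicates 1 and 5 together, scaling to an equal total after removal of mitochondrial genes and the 50 most abundant ones, and voom without a filter. The labels name no batch. Figures used Python 3.11.15, pandas 2.3.3, numpy 2.4.6 and matplotlib 3.10.9.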

Additional observations from a re-analysis of the deposited data

Results flagged for a closer look

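Groups of 4 libraries were examined for the 10 members and the 16 other pathway genes called in any comparison. Of these 78 groups, 6 held a library far from the rest. Chance alone marks about 1 in 20 groups. Fstl1 was 7.89 FPKM in NTV replicate 3 against 14.1 to 15.4 in the other NTV libraries. Without that library its log2 change in TV against NTV was -1.65. Tcap was 1286 FPKM in NTV replicate 2 against 2177 to 2341 in the rest of the group. Wfikkn2 was 3.74 FPKM in TL replicate 5 against 5.05 to 5.28. Smad4 was 16.3 FPKM in TV replicate 8 against 22.8 to 23.8. Sik1 was 43.0 FPKM in TV replicate 3 against 24.2 to 25.9. Postn was 2.30 FPKM in TV replicate 3 against 0.577 to 0.849.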

How the results depend on the processing

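Of 642 member results under alternatives, 597 kept their side of the threshold, 36 lost a call and 9 gained one. No called difference changed sign, but 37 values of 8 differences that were not called did; Fst in TV against NTV, for example, was 0.10 without NTV replicate 6 (-0.13 with all libraries), and Mstn in TL against NTV was 0.06 without TL replicates 1 and 5 (-0.24). Leaving out 1 library gave 2 to 4 called members in TV against NTV (3 with all libraries), 0 in TL against TV and 1 to 3 in TL against NTV (3). It gave 11 to 21 (15), 0 to 1 (0) and 4 to 10 (7) other pathway genes and 2223 to 3443 (3217), 7 to 282 (66) and 514 to 1289 (1123) genes in all. The 282 came without TL replicate 4 and the 7 without TL replicate 5.

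The title numbers were not taken to pair mice, since same-numbered libraries deviated together only weakly (r from 0.014 to 0.133). With these numbers as a replicate block, 2 residual degrees of freedom remained and 0 members, 0 other pathway genes and 0 genes in all were called in any comparison. Acvr1b then stood at 0.96, Fstl1 at -1.09 and Gdf11 at -1.02 in TV against NTV.

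In TL against TV, 19 genes were called with no filter, 40 with an equal total, 8 with only the 2 groups compared, 0 without libraries with Ucp1 above 2 FPKM and 4 without TL replicates 1 and 5. In TL against NTV these were 742 with no filter, 729 with an equal total and 712 without the Ucp1 libraries. Members called in TL against NTV were 1 with no filter and 0 without the Ucp1 libraries; other pathway genes were 11 with only the 2 groups and 4 without the Ucp1 libraries. An equal total moved the median of all genes in TL against NTV from 0.02 to 0.14. The share of calls that were higher moved to 63.0% there (47.6% as deposited), to 75% in TL against TV (45.5%) and, with mitochondrial genes and the 50 most abundant ones left out of the total, to 63.5% in TL against TV and 36.9% in TV against NTV (54.6%). Causes were not tested. Inhba, Fstl3, Inhbb and Fst rest on few reads, which limits what could be detected.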
